A study of Mus musculus with 11 samples.

Results

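This account covers 9 of the 28692 genes in each deposited matrix, *Slc5a1*, *Slc5a2*, *Slc5a12*, *Slc2a2*, *G6pc*, *Pck1*, *Fbp1*, *Khk* and *Miox*, chosen by symbol for their roles in proximal glucose transport, gluconeogenesis and the neighbouring fructose and inositol steps. Single-cell RNA was sequenced from mouse kidneys in 11 libraries of dissociated tissue. Each captured transcript bears the barcode of its cell and a random tag, and UMI counts below are counts of such tags. Of the libraries, 5 came from naive control mice (Ctrl, N1, N2, AN1 and AN2, made in 3 batches) and 3 each from mice with unilateral ischemia/reperfusion (UIR, the left renal pedicle clamped for 30 minutes) or unilateral ureteral obstruction (UUO, the left ureter tied for good), both taken at day 28. All mice were C57Bl/6 males. The injured mice were operated on at 10 weeks of age, and the controls were naive mice of the same strain, sex and age. No label gives a batch for the UIR and UUO libraries, so batch and injury cannot be told apart. Levels are given in the order Ctrl, N1, N2, AN1, AN2 for the controls and unnumbered library, library 1, library 2 for each model, as CPM, the UMIs of a gene scaled to 1e6 UMIs of the cell class.

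The proximal tubule (PT) takes back the glucose that the glomerulus filters. The apical carriers Sglt2 (*Slc5a2*, in the convoluted segments) and Sglt1 (*Slc5a1*, further downstream) bring it into the cell with sodium, and Glut2 (*Slc2a2*) lets it leave across the basolateral membrane. The same cells also make glucose from lactate, glutamine and glycerol, which *Slc5a12* (a sodium-coupled lactate carrier), *Pck1* (phosphoenolpyruvate carboxykinase), *Fbp1* (fructose bisphosphatase) and *G6pc* (the catalytic subunit of glucose 6-phosphatase) serve, while *Khk* (ketohexokinase) starts the breakdown of fructose and *Miox* (myo-inositol oxygenase) that of inositol.

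In mm10 coordinates the genes lie on 7 chromosomes: *Slc5a1* at chr5:33104219-33162870, *Khk* at chr5:30921431-30931248, *Slc5a2* at chr7:128265657-128272430, *Slc5a12* at chr2:110597298-110647779, *Pck1* at chr2:173153048-173159273, *Slc2a2* at chr3:28697903-28731359, *G6pc* at chr11:101367561-101377903, *Fbp1* at chr13:62864753-62888282 and *Miox* at chr15:89334398-89337015. *Fbp1* is on the minus strand and the others are on the plus strand, and each is annotated as protein-coding. Promoters (250 bases before to 50 after the RefSeq start, GRCm38.p6) were matched for 7 of the 9 genes, not for *Slc5a2* and *Slc5a12*. They were searched on both strands for the short arm GTTAAT of the site of HNF1, a transcription factor of hepatocytes and renal epithelium. It was in 4 of the 7, those of *Pck1*, *Khk*, *G6pc* and *Miox*, and in 7.10% of 32851 promoters of the same length. Those of *Pck1*, *G6pc* and *Khk* are printed here with the arm (or its reverse complement ATTAAC) in capitals, because *Pck1* and *G6pc* fell in injured PT while *Khk* did not pass the test in either model.

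Pck1, chr2:173152823-173153122, plus strand: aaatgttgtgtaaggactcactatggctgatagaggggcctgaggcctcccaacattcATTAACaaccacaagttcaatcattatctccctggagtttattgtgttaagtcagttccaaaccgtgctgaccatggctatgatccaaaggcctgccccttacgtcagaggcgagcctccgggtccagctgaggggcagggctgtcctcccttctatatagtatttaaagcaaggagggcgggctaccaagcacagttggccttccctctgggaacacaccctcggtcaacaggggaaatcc
G6pc, chr11:101367466-101367765, plus strand: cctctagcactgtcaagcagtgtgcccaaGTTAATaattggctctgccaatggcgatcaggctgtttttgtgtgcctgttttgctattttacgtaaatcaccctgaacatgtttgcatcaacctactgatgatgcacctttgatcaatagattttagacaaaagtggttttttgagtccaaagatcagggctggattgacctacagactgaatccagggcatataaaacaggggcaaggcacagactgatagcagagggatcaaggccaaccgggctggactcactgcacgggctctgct
Khk, chr5:30921309-30921608, plus strand: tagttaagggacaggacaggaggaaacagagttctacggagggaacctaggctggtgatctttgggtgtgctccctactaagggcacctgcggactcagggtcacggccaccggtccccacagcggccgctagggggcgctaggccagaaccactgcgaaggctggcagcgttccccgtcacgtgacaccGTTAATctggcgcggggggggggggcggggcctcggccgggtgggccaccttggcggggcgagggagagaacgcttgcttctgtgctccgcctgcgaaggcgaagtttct

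The arm began 192 bases before the start in *Pck1*, 221 in *G6pc*, 60 in *Khk* and 142 in *Miox*. The short cyclic AMP response element ACGTCA was found in *Pck1* alone, 91 bases before the start, and in 7.51% of all promoters. TATAAA was found in *G6pc* (29 bases before the start) and *Miox* (40 bases before), and in 13.6% of all. The full HNF1 site and the full response element TGACGTCA, which contain these short forms, and the HNF4 site CAAAGTCCA were in none of the 7 and in 0.00913%, 1.79% and 0.475% of all promoters.

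After barcodes above 30% mitochondrial UMIs and predicted doublets were left out, 40586 cells remained, of which 9740 were PT. Library totals ran from 49503312 to 117043590 UMIs. PT cells numbered 1291 to 1731 per control library (67.0 to 70.6% of its cells), 593 to 1231 per UIR library (10.8 to 16.7%) and 25 to 87 per UUO library (0.474 to 2.29%). Their summed UMIs came to 7611291 to 12241999 in controls and 3119850 to 7102777 in UIR, against 35762, 169702 and 418847 in UUO, so that single UMIs weigh heavily in UUO. All 8 PT markers were found in each PT pool, with a sum of 7894 to 9362 CPM in controls, 7201 to 7443 for UIR and 4530 to 6724 for UUO. The 5 markers of convoluted PT came to 2163 to 2584, 1742 to 1978 and 1478 to 2013 CPM, and S1/S2-like cells to 26.5 to 42.7% of control, 20.2 to 22.8% of UIR and 11.1 to 25.3% of UUO PT cells, neither injured group overlapping the controls. The part of this lower convoluted share in the all-PT results was not tested, and the S1/S2-like cells are described on their own. The pools of the injured kidneys held more of other classes' markers: those of macrophages (3 to 4 of 4 detected in controls) reached 5.78 to 10.3 CPM in sum over the controls, with a range of 62.4 to 94.1 for UIR and of 64.8 to 671 for UUO (3 to 4 of 4 detected), and those of failed-repair cells 60.8 to 141, 309 to 364 and 253 to 615 CPM. PT sub-clusters led by genes of another class made up 0.144 to 1.02% of control, 25.4 to 44.7% of UIR and 37.9 to 55.6% of UUO PT cells. By this is meant more listed markers of another class than of PT among the 10 leading genes. One led by *Cfi*, *Cpn1*, *Cd74* and *Spp1* (14 control, 155 UIR and 14 UUO cells) had no such marker there and was not counted. The part of the counted sub-clusters in the results was not tested, and the all-PT results without them are given where they differ. Between 0 and 18 barcodes were shared by any pair of libraries. The methods list as many mice per group as there are libraries, though no label ties a library to a mouse, and p-values measure the spread between libraries.

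At day 28 of UIR, the sampled PT held less *G6pc*, *Pck1*, *Slc5a12* and *Slc2a2* mRNA than control PT and more *Slc5a1*. *G6pc* fell most, 2.85-fold, and *Pck1* fell 1.64-fold, while *Fbp1* and *Khk*, on the same routes, showed no difference that passed the test. Of the 9 genes, 5 passed edgeR's quasi-likelihood test at an adjusted p under 0.05 (1 higher and 4 lower), where 12.4% of the 11550 genes tested did (8.11% higher, 4.32% lower). In UUO 6 of 9 passed, all lower, against 3.23% of all genes (1.94% higher, 1.29% lower), and the members lower in UIR were also among these 6. Both models are set against the same 5 controls. The median log2 fold change of the 9 was -0.47 in UIR and -0.9995 in UUO, beside -0.02 and -0.11 over all genes tested.

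**Figure D1:**
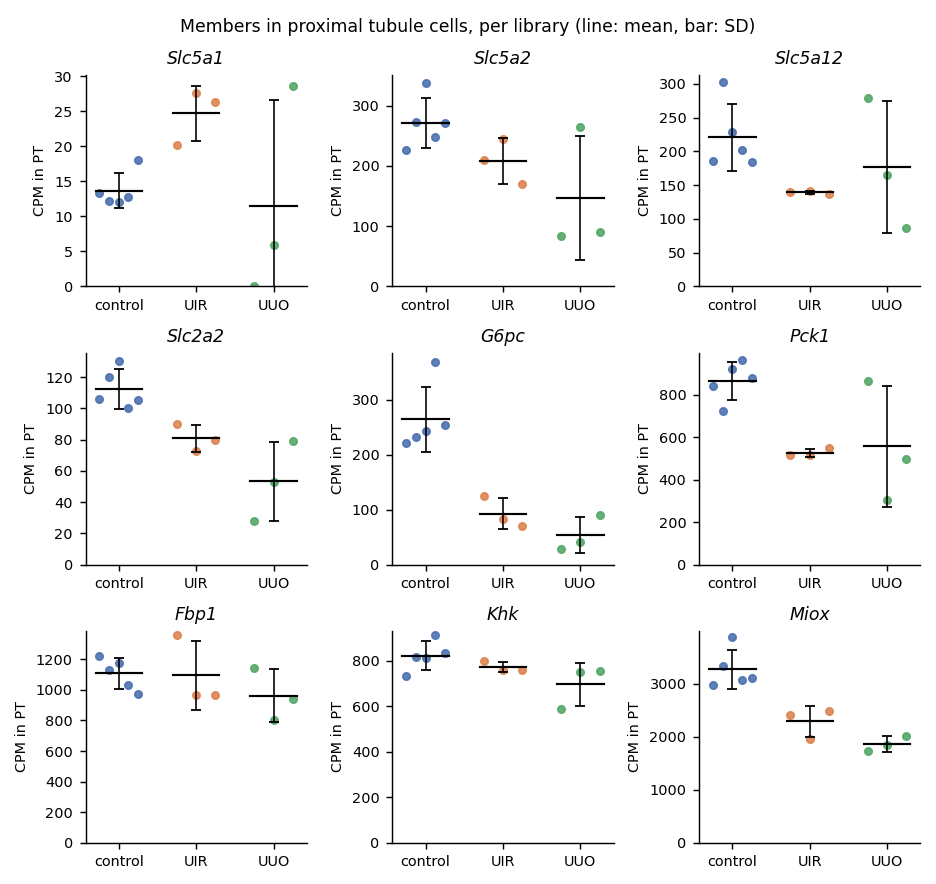
Levels of the 9 genes in PT cells in CPM, each dot a library, the line the group mean and the bar the SD (cut at 0 for Slc5a1 in UUO). The 3 UIR libraries lie below all controls for G6pc, Pck1, Slc2a2, Slc5a12 and Miox and above them for Slc5a1. The UUO libraries spread more widely, from 0 to 28.65 CPM for Slc5a1.

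Of the apical carriers, *Slc5a1* was the one that rose in UIR. Its PT level was 13.3, 12.2, 12.0, 12.7 and 18.01 CPM in the controls, 20.2, 27.6 and 26.3 in UIR and 0, 5.89 and 28.65 in UUO. All 3 UIR libraries stood above the highest control, whereas UUO, with 13 UMIs of the gene in all, spanned the controls on both sides. The log2 fold change was 0.87 in UIR (SE 0.18, edgeR adjusted p = 0.00172), a 1.83-fold rise, and 0.40 in UUO (SE 0.49, adjusted p = 0.756). Without UUO library 2, which held 12 of the 13 UMIs, the UUO value turned to -1.84, while it passed as a rise at a mitochondrial limit of 50% (0.89, adjusted p = 0.0176) and with predicted doublets kept (1.02, adjusted p = 0.0017).

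*Slc5a2* was at 227, 273, 337, 248 and 271 CPM in the controls, 209, 245 and 170 in UIR and 83.9, 265 and 90.7 in UUO. UIR overlapped the controls, and of the UUO libraries 2 were below them and 1 within. In UIR the difference of -0.37 (SE 0.18) did not pass (edgeR adjusted p = 0.225), with a 95% interval of -0.75 to 0.02. The fall in UUO of -1.09 (SE 0.28, adjusted p = 0.0385) was lost without the unnumbered UUO library (-0.97, adjusted p = 0.0954), without library 2 (-0.64, adjusted p = 0.391) and without AN1 or AN2 (-1.10 and -1.07, adjusted p = 0.0551 and 0.056). Without UUO library 1, whose level lay within the controls, it was -1.78 (adjusted p = 0.003).

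*Slc2a2*, the basolateral exit, was lower in both models. It measured 106, 120, 130, 100 and 105 CPM in the controls, 89.9, 72.8 and 79.8 in UIR and 27.96, 53.03 and 78.8 in UUO. Neither injured group overlapped the controls. The fold changes were small, 1.39-fold lower in UIR (log2 -0.47, SE 0.13, edgeR adjusted p = 0.0176) and 1.88-fold lower in UUO (log2 -0.91, SE 0.24, adjusted p = 0.0409). Single libraries decided both calls: the UIR call was lost without UIR library 1 (-0.40, adjusted p = 0.139) or 2 (-0.45, adjusted p = 0.0782), and the UUO call without any of 6 libraries, N1, N2, AN1, AN2, the unnumbered UUO library and UUO library 1 (-0.93 to -0.79, adjusted p = 0.0509 to 0.199), while without UUO library 2 it was -1.57 (adjusted p = 0.0329).

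*Slc5a12*, the lactate carrier, was at 186, 303, 228, 202 and 184 CPM in the controls and at 139, 141 and 137.5 in UIR. In UUO it was at 280, 165 and 85.95 CPM, of which the first is 10 UMIs. UIR lay below every control, and the unnumbered UUO library lay inside their range. The fall was 1.57-fold in UIR (log2 -0.65, SE 0.15, edgeR adjusted p = 0.0059) and 1.9993-fold in UUO (log2 -0.9995, SE 0.25, adjusted p = 0.027). The latter did not pass without UUO library 2 (-0.60, adjusted p = 0.362).

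Among the gluconeogenic enzymes the fall was uneven. *Pck1*, which commits oxaloacetate to glucose, was at 842, 726, 919, 964 and 879 CPM in the controls, 514, 517 and 548 in UIR and, for UUO, 867, 306 and 497. The UIR libraries stood close together and below all controls, as did 2 of the 3 UUO libraries. *Pck1* fell 1.64-fold in UIR (log2 -0.71, SE 0.16, edgeR adjusted p = 0.00343) and 2.16-fold in UUO (log2 -1.11, SE 0.19, adjusted p = 0.00143). The call held in both models under all 23 alternatives run.

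*G6pc*, whose product releases free glucose at the last step, measured 222, 233, 244, 369 and 255 CPM in the controls. It measured 125, 82.6 and 70.5 CPM in UIR and 27.96, 41.25 and 90.7 in UUO, the last 3 values resting on 1, 7 and 38 UMIs. Every injured library was below every control. The log2 fold change was -1.51 in UIR (SE 0.20, edgeR adjusted p = 1.63e-05) and -2.08 in UUO (SE 0.34, adjusted p = 0.000877), a 4.22-fold fall. In UIR the call held under all 23 alternatives, with values from -1.93 to -1.18, and without AN1, the highest control, it was -1.34. In UUO it was lost where cells needed 1000 UMIs, which left 1 UUO library (-1.57, adjusted p = 0.133), and without UUO library 2 it was -3.13 (adjusted p = 0.0053).

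*Fbp1*, the enzyme between these steps, was at 1223, 1129, 1178, 1034 and 974 CPM in the controls, 1357, 966 and 966 in UIR and 1146, 801 and 938 in UUO. UIR spanned the whole control range. The log2 difference was -0.01 in UIR (SE 0.15, 95% interval -0.32 to 0.31, edgeR adjusted p = 0.996) and -0.54 in UUO (SE 0.17, interval -0.90 to -0.17, adjusted p = 0.0997). *Khk* was at 734, 815, 813, 914 and 835 CPM in the controls, 799, 760 and 760 in UIR and 587, 748 and 752 in UUO. It differed by -0.08 in UIR (SE 0.15, interval -0.40 to 0.24, adjusted p = 0.799) and by -0.44 in UUO (SE 0.18, interval -0.81 to -0.07, adjusted p = 0.214).

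*Miox* was at 2979, 3340, 3891, 3079 and 3102 CPM in the controls, 2421, 1961 and 2492 in UIR and 1734, 1839 and 2025 in UUO. No injured library reached the lowest control. In UIR the 1.43-fold lower level missed the threshold (log2 -0.51, SE 0.19, edgeR adjusted p = 0.0845), although it passed in 6 of 23 alternatives, among them DESeq2 (adjusted p = 0.0102) and doublets kept (-0.97, adjusted p = 0.000267). In UUO *Miox* fell 2.12-fold (log2 -1.08, SE 0.20, adjusted p = 0.00324).

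None of the 9 genes passed between UUO and UIR (0 of 11550 genes did, 0.0%, with 928 at an unadjusted p under 0.05 in edgeR). The largest difference was that of *Slc5a2* (-0.73, SE 0.30, edgeR adjusted p = 0.554). All 9 differences had a negative sign, with a median of -0.47 beside -0.11 over all genes tested.

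**Figure D2:**
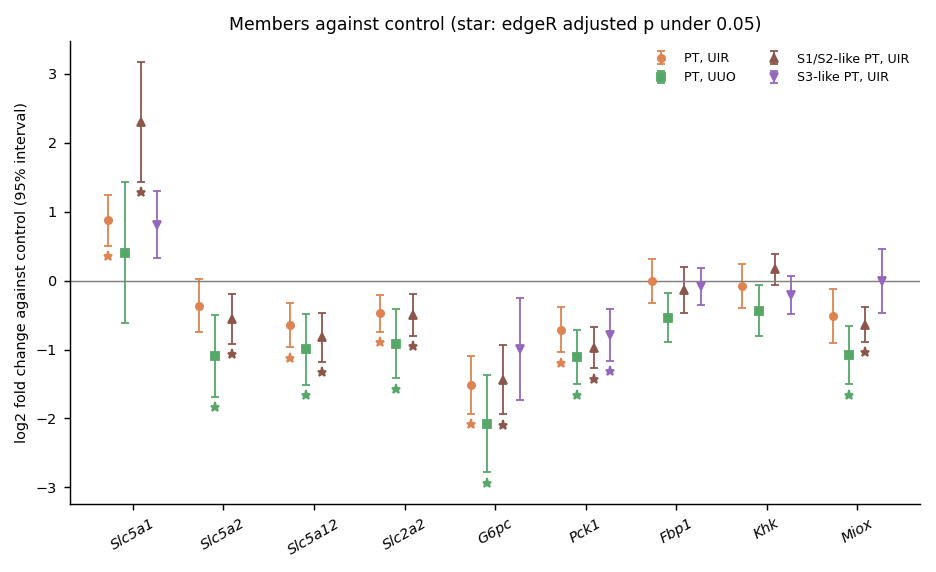
Log2 fold changes against control with 95% intervals for all PT cells (UIR, UUO) and for S1/S2-like and S3-like PT in UIR. Stars mark edgeR adjusted p under 0.05. Slc5a1 lies above 0 in all 4 sets, G6pc and Pck1 lie below 0 in all 4, and in all PT of UIR Fbp1 and Khk lie nearest to 0.

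The calls depended on the limit set on mitochondrial UMIs. Between 56.9 and 78.9% of the barcodes called as cells in control libraries held more than 30% mitochondrial UMIs, against 23.9 to 37.3% in UIR and 3.15 to 8.03% in UUO. These rates cover barcodes of all classes, not PT alone. The median mitochondrial share was 16.75 to 20.94% over the S1/S2-like PT sub-clusters and 18.65 to 23.69% over the S3-like ones. The part of a changed mix of PT cells in the results below was not tested. With the limit lowered to 15%, *Slc5a2* fell in UIR (-1.50, edgeR adjusted p = 0.00113), and *Slc5a12* and *Slc2a2* fell further (-1.34 and -1.10). With the limit raised to 50%, these 3 carriers were at 0.15, -0.20 and -0.10 and none passed (adjusted p = 0.767, 0.592 and 0.689). *Pck1* stayed at -0.75 and -0.74, *G6pc* was at -1.93 and -1.18 and *Slc5a1* at 1.67 and 0.42, all past the threshold. In UUO at 15%, with 2 UUO libraries of 20 cells left, *Slc5a2* was at -3.75, *Slc5a12* at -3.05, *Slc2a2* at -2.23 and *G6pc* at -3.51, all past the threshold, and at 50% these were -1.16, -1.08, -0.66 and -1.78, all past it too. The median mitochondrial share of kept PT cells was 10.6% in Ctrl and 21.1 to 23.1% in the other controls. It was 17.7 to 21.7% for UIR and 6.90 to 14.2% for UUO.

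**Figure D3:**
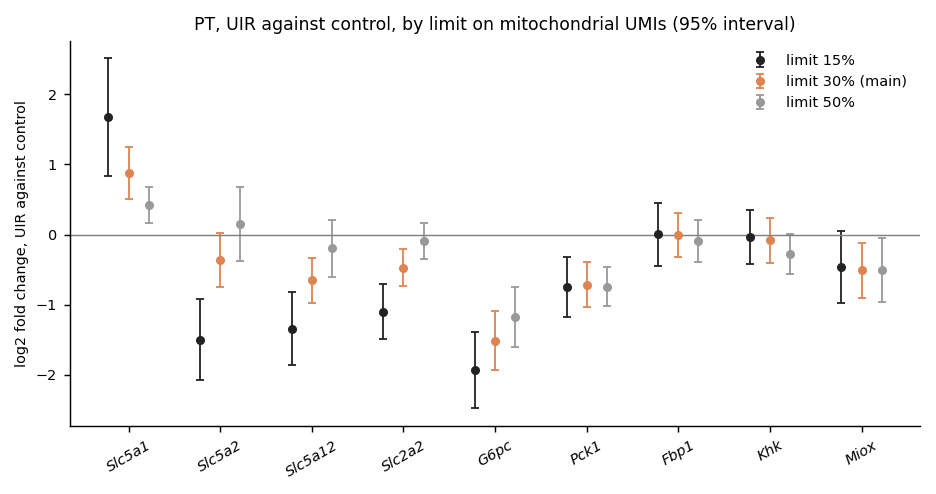
Log2 fold change of each gene in PT, UIR against control, with 95% intervals, where cells with up to 15%, 30% or 50% mitochondrial UMIs are kept. The 3 carriers Slc5a2, Slc5a12 and Slc2a2 move from -1.50, -1.34 and -1.10 to values near 0 as the limit rises, while Pck1 stays at -0.75 to -0.71.

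Without the PT sub-clusters led by genes of another class, 4 of the 9 genes passed in UIR, where *Slc2a2* was lost (-0.36, edgeR adjusted p = 0.0979). In UUO, with 14 to 54 cells per library, 3 passed, *G6pc* (-1.89), *Pck1* (-1.26) and *Miox* (-1.11). A cluster of PT cells with few UMIs (3109 cells, of which 1955 control, 1075 UIR and 79 UUO) had *Miox*, *Fbp1* and *Gatm* among its 10 leading genes but none of the 8 PT markers, *Gatm* being a marker of convoluted PT. Without it the same number, 5, passed in UIR. In UUO, with 11 to 43 cells per library, 2 passed, *G6pc* (-2.01) and *Pck1* (-1.13). There *Miox* (-1.13), *Slc5a2* (-1.03), *Slc5a12* (-0.96) and *Slc2a2* (-0.80) kept much of their size without passing. Free RNA was estimated at 6.06 to 12.7% of the UMIs of control PT, 7.67 to 14.4% in UIR and 6.92 to 50.5% in UUO. With it subtracted, 3 genes passed in UIR (*Slc5a1*, *G6pc* and *Pck1*) and 2 in UUO (*G6pc* at -1.92 and *Pck1* at -0.94). The others called before were then at -0.58 (*Slc5a12*) and -0.40 (*Slc2a2*) in UIR and at -0.89 (*Miox*), -0.90 (*Slc5a2*), -0.81 (*Slc5a12*) and -0.75 (*Slc2a2*) in UUO.

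The genes differed between 2 PT segments, which were named from markers other than these 9. Of 7100 control PT cells, 2491 were S1/S2-like and 447 S3-like, and of 2492 UIR cells 521 and 226. The rest were in neither segment, and their levels are not given here. In S1/S2-like (convoluted) control cells *Slc5a2* was at 595 to 673 CPM, *Slc5a12* at 433 to 681 and *Slc2a2* at 188 to 213, against 3.83 to 14.05, 1.24 to 7.03 and 10.5 to 21.4 CPM in S3-like (straight) control cells. *G6pc* followed them (301 to 515 and 14.3 to 42.7 CPM) and so did *Miox* (4364 to 4747 and 434 to 924 CPM). *Slc5a1* had the opposite order, 0.776 to 6.38 CPM in S1/S2-like and 22.3 to 38.3 in S3-like cells. *Khk* was also higher in the S3-like cells (890 to 1142 against 594 to 728 CPM), whereas *Pck1* (526 to 651 against 730 to 1191 CPM) and *Fbp1* (796 to 958 against 1188 to 1706 CPM) were lower. For none of these genes did the ranges of the 5 controls overlap between the segments. The segments come from clusters of expression, and the share of all genes that separate in this way was not counted.

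Within S1/S2-like cells of UIR, 7 of the 9 genes passed (1 higher and 6 lower), where 11.5% of 10349 genes did (7.48% higher, 4.05% lower). *Slc5a1* was at 0.776, 2.74, 5.79, 3.44 and 6.38 CPM in the controls and at 8.09, 18.7 and 28.4 in UIR. All UIR libraries were above all controls, and the rise was 4.94-fold (log2 2.30, SE 0.41, edgeR adjusted p = 0.0016). *Slc5a2* fell from 640, 606, 632, 595 and 673 CPM to 516, 475 and 261 in UIR (log2 -0.56, SE 0.17, adjusted p = 0.0416). *Slc5a12* (-0.82), *Slc2a2* (-0.50), *G6pc* (-1.44), *Pck1* (-0.97) and *Miox* (-0.64) fell as well, with adjusted p of 0.00398, 0.0367, 0.000863, 0.000268 and 0.00215. *Khk* (0.17, adjusted p = 0.344) and *Fbp1* (-0.14, adjusted p = 0.622) did not pass.

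The calls of *Slc5a2* and *Slc2a2* in S1/S2-like cells were lost when any of most single libraries was left out. Without UIR library 2 they were -0.31 (edgeR adjusted p = 0.157) and -0.33 (adjusted p = 0.211). At a mitochondrial limit of 50%, 2 of the 9 genes passed in these cells. The S1/S2-like cells were also not made of the same clusters: one led by *Cfi*, *Cpn1*, *Cd74* and *Spp1* held 155 of 521 UIR cells and 14 of 2491 control cells. One UUO library had 20 such cells (22 of library 2), with 135 CPM of *Slc5a2*, 131 of *G6pc*, 382 of *Pck1* and 7 UMIs of *Slc5a1*, and no test was made.

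In S3-like cells *Pck1* passed in UIR, 1 of the 6 genes tested, where 3.95% of 5592 genes did (1.91% lower). Of the 226 UIR cells, 63 were of a sub-cluster led by *Serpina1a*, *Cryab* and *Cp* that held 1 of 447 control cells, and no fit of S3-like cells left it out. *Pck1* was at 526, 651, 587, 595 and 559 CPM in the controls and 205, 380 and 457 in UIR, with no overlap (log2 -0.79, SE 0.18, edgeR adjusted p = 0.013). Without the unnumbered UIR library the call was lost (-0.53, adjusted p = 0.0717). *Slc5a1* stood at 26.8, 30.4, 29.9, 22.3 and 38.3 CPM in the controls and 42.1, 56.6 and 63.6 in UIR, again without overlap (log2 0.81, SE 0.23, adjusted p = 0.0554). *G6pc* was at -0.99 (SE 0.35, adjusted p = 0.147). *Slc5a2*, *Slc5a12* and *Slc2a2* were too low there to be tested.

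Shares of PT cells with at least 1 UMI of a gene were compared after every cell was thinned to 1000 UMIs, which left out 1241 control and 734 UIR cells. *Pck1* was then found in 52.0% ± 4.4 of control cells (SD, n = 5 libraries) and 34.9% ± 0.0873 of UIR cells (n = 3), a two-sided exact permutation p of 0.0357, the smallest that 5 against 3 libraries allow. *G6pc* was found in 17.8% ± 3.7 and 8.57% ± 1.0, with the same exact p, as were *Slc2a2* (8.81 and 5.78%) and *Khk* (55.5 and 49.4%). Adjusted over the 9 tests at this depth these exact p became 0.0804, so that none passed. In UUO 1 library had 20 cells of that depth. At 500 UMIs the exact p reached 0.0357 there for *Slc5a1*, *G6pc* and *Miox* (adjusted 0.107 over 18 tests of both models). *Slc5a1* was found in 0 of 148 UUO cells against a mean of 0.54% in controls, too few cells to show a difference, and *G6pc* was found in 0.926% of UUO and 9.47% of control cells. In T/NK cells, which should lack these genes, *G6pc* was found at 1000 UMIs in 1.45% of control and 0.13% of UIR cells and *Pck1* in 5.45% and 1.57%. Those cells' median depth was 3184 to 4157 UMIs, against 2493 to 5500 for PT in the same groups. Without thinning, *Pck1* was found in 78.3% of control, 55.3% of UIR and 43.1% of UUO PT cells and *G6pc* in 45.3, 20.3 and 8.19%. *Slc5a1* was then found in 6.88, 7.36 and 4.015%.

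Of 56 further genes of hexose transport, gluconeogenesis, its substrates, fructose and inositol steps and their regulators, 53 were tested in PT, and 5 passed in UIR and 1 in UUO, where 12.4% and 3.23% of all genes tested did. *Pdk4* (a kinase that restrains pyruvate dehydrogenase, log2 0.85, edgeR adjusted p = 0.0489) and *Isyna1* (which makes inositol from glucose 6-phosphate, 0.86, adjusted p = 0.00735) rose in UIR. The transcription factor genes *Hnf4g* (-0.92, adjusted p = 0.000712) and *Ppara* (-0.53, adjusted p = 0.019) fell. In UUO *Dcxr*, a reductase of the glucuronate route that *Miox* opens, fell (-1.04, adjusted p = 0.00185). None of the 16 other gluconeogenic steps and none of the 9 tested of 12 carriers, most of them of hexoses and polyols, passed in either model. The median over the 53 was -0.06 in UIR and -0.16 in UUO. With predicted doublets kept, 14 and 21 of the list passed, and 26.5 and 27.6% of all genes.

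Failed-repair cells (31 in controls, 516 in UIR, 152 in UUO) formed 2 clusters that differed in these genes, and no control library had the 20 cells needed for a pool. In the pools of the cluster led by *Spink1*, *Slc13a1* and *Ubd* (UIR unnumbered, 1 and 2, then UUO library 1), *Slc5a2* was at 178, 245, 122 and 32.2 CPM, *Pck1* at 103, 79.9, 121 and 91.97, *Khk* at 413, 216, 367 and 175 and *Slc2a2* at 37.6, 93.5, 79.97 and 57.5. *G6pc* was at 0, 27.1, 11.5 and 4.60 CPM, and *Miox* at 329, 226, 153 and 27.6. In each UIR library, *G6pc*, *Pck1*, *Fbp1*, *Khk* and *Miox* were lower in these cells than in the PT of the same library, *Pck1* for instance at 103 against 514 CPM. *Slc5a2* stood at 209, 245 and 170 CPM in the PT of the 3 UIR libraries and at 265 in that of UUO library 1, where it was lower in this cluster. The free-RNA share of these pools could not be set (estimates from 78.0 to 394%), so the level in the empty droplets of the same 4 libraries is given instead. That was 82.3, 73.8, 71.6 and 9.32 CPM for *Slc5a2*, 34.4, 18.01, 14.5 and 3.81 for *Slc2a2* and 239, 157, 125 and 40.3 for *Khk*, each below the pools. It was 677, 520, 417 and 36.9 CPM for *Miox*, above all pools, and 153, 114, 77.6 and 18.01 for *Pck1*, above the pools of the unnumbered UIR library and UIR library 1. For *G6pc* it was 47.9, 19.4, 13.2 and 1.91 CPM, near the pools in UIR libraries 1 and 2. Values at or below the empty droplets cannot be told from free RNA. These pools hold 27 to 237 cells of 1 library each, and no test was made between classes.

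The other failed-repair cluster, led by *Tnc*, *Wnt16* and *Ncam1*, had 2 UIR and 2 UUO pools. *Fbp1* was at 20.3 and 5.27 CPM in UIR and at 0 and 1.12 in UUO, *Pck1* at 4.61 and 3.77, then 0 and 1.12, and *Miox* at 25.8 and 14.3, then 0 in both. In UIR these lay between 0.50 and 1.56 times what free RNA alone would give. *Khk* was above that level, at 34.1, 27.1, 25.3 and 33.6 CPM. Over both clusters, 0 of the 7 genes tested passed between UUO and UIR (0 of 9623 genes, 0.0%, with 1342 at an unadjusted p under 0.05 in edgeR). UIR cells were mostly of the first cluster (348 of 516) and UUO cells of the second (91 of 152), so that the models differ in cluster makeup as well. The values ran from -1.40 for *Pck1* to -3.92 for *Slc5a2* (adjusted p = 0.311 and 0.0822).

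**Figure D4:**
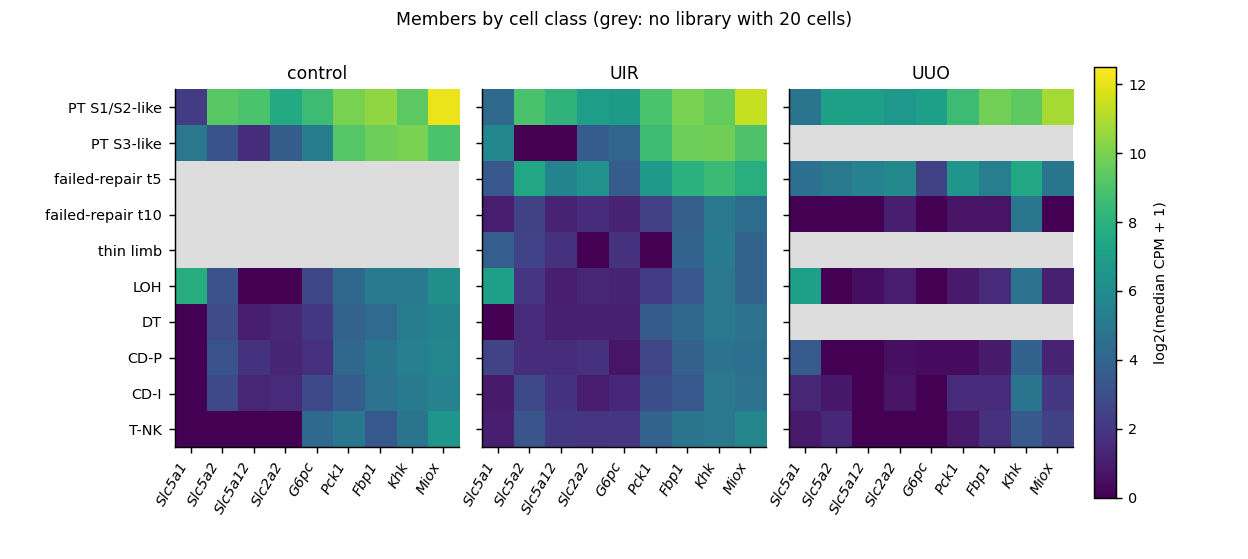
Median CPM of each gene over libraries, as log2(CPM + 1), by cell class (rows) and group (panels), with grey where no library had 20 cells. Read down a column, G6pc, Pck1, Fbp1, Khk and Miox are highest in PT, Slc5a2 and Slc2a2 are also found in the failed-repair cluster t5 (led by Spink1), and Slc5a1 is highest in LOH.

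*Slc5a1* had a second site in the loop of Henle (LOH), whose thick ascending limb cells carry *Slc12a1* and *Umod*. Its LOH level was 345, 223, 191, 264 and 141 CPM in the controls, 126, 132 and 131 in UIR and 80.1, 149 and 131 in UUO, 96.0 to 380 times what free RNA would give. All UIR libraries and 2 of the 3 UUO libraries were below the lowest control. The fall was 2.19-fold in UIR (log2 -1.13, SE 0.20, edgeR adjusted p = 0.000124) and 2.37-fold in UUO (log2 -1.24, SE 0.21, adjusted p = 6.33e-05). Thus *Slc5a1* was lower in LOH and higher in PT of the same UIR libraries. The call held with free RNA subtracted (-1.13 and -1.22) and with each library left out in turn.

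Control and injured LOH cells belonged to different clusters. One led by *Egf* held 234 of the 238 control cells and 64 of 1048 UIR cells, and the other 2 held 577 and 407 of the UIR cells. Within the *Egf* cluster, *Slc5a1* was at 343, 223, 199, 264 and 135 CPM in the controls and 216 and 226 in the 2 UIR libraries with 20 cells, inside the control range. In the other clusters it was at 128, 147 and 142 CPM in UIR and 94.2, 155 and 139 in UUO (the one led by *Slc12a1*), and at 85.0, 63.1 and 74.6, then 49.1, 116 and 66.2 CPM (the one led by *Umod*).

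**Figure D5:**
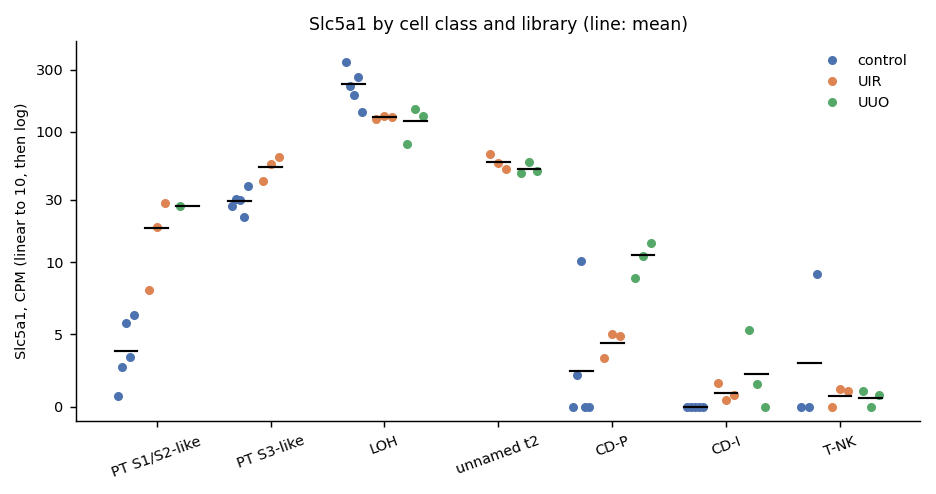
Slc5a1 in CPM by cell class, each dot a library with at least 20 cells and the line the group mean, on an axis linear to 10 and logarithmic above. In LOH the UIR libraries (126 to 132 CPM) lie below the controls (141 to 345 CPM), and in both PT segments they lie above them.

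Of the *Slc5a1* UMIs of the kept cells, PT held 44.8 to 73.0% in control libraries and LOH 23.8 to 53.8%, whereas in UIR PT held 5.90 to 16.9% and LOH 64.9 to 77.8%, and in UUO PT held 0 to 4.35% and LOH 51.4 to 62.5%. These shares move with the number of cells of each class. An unnamed tubular cluster led by *Psca*, *S100a6* and *Gabrp*, without control cells (227 UIR, 332 UUO), held *Slc5a1* at 67.7, 57.4 and 52.2 CPM in UIR and 48.1, 58.9 and 49.6 in UUO. In collecting duct principal cells *Slc5a1* was at 0, 2.19, 10.2, 0 and 0 CPM in the controls, 3.36, 5.04 and 4.89 in UIR and 8.93, 11.2 and 13.96 in UUO. It was higher in UUO (log2 2.81, SE 0.68, edgeR adjusted p = 0.00298), against 4 UMIs in all controls, so that the size is uncertain. *Slc5a1* also met the filter on low counts through the UUO libraries, where it was high. The test is therefore not independent of that choice, and the levels are given as a description. The groups also sat in different clusters: those led by *Kcne1* and by *Aqp2* held 118 and 108 of the 232 control principal cells but 12 and 0 of the 396 in UUO, and those led by *Clu* and by *Aldh1a3* held 1 and 5 control but 326 and 58 UUO cells. It did not pass in UIR (1.49, adjusted p = 0.257) except without N2 (3.18, adjusted p = 0.0249), where the UUO value was 4.49.

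Outside PT the other genes were low. In control LOH, *Miox* was at 56.6 to 88.1 CPM, *Fbp1* at 22.7 to 48.5 and *Pck1* at 10.8 to 26.4, between 0.56 and 1.77 times the free-RNA level. In UUO LOH, *Miox* was at 0 to 1.85 CPM, *Fbp1* at 0.781 to 2.77 and *Pck1* at 0 to 2.77. All 5 genes tested in LOH were lower in both models (29.2 and 30.1% of 9677 genes passed in UIR and UUO, 14.8 and 15.2% lower). In collecting duct principal cells 4 of 6 passed in UIR, all lower, and 6 of 6 in UUO, 5 of them lower (17.7 and 34.3% of 10336 genes, 8.06 and 16.8% lower). Some of these genes met the filter on low counts only through the controls, where they were high. Examples are *Pck1* in LOH and *Slc5a2* in principal cells (21 UMIs in controls, 13 in UIR and 0 in UUO). The counts of genes that passed are thus partly set by the filter. In intercalated cells 2 of 4 and 4 of 4 were lower (11.8 and 25.1% of 9567 genes, 6.33 and 13.3% lower), where a cluster led by *Clcn5* held 172 of 234 UUO, 130 of 475 UIR and 0 of 246 control cells, and in the distal tubule in UIR 1 of 4 was, *Miox* (9.63% of 8140 genes, 5.1% lower). Of the distal tubule cells, 247 of 362 in controls but 30 of 109 in UIR were of a cluster led by *Slc12a3*, and the rest of one led by *S100g* and *Calb1*, which scored higher for principal cell than for distal markers. Between UUO and UIR, 2 of 5 passed in LOH, 5 of 6 in principal and 2 of 4 in intercalated cells, all lower in UUO (0.32, 5.12 and 2.53% of genes). The median level of *Miox* in empty droplets was 916 CPM in controls, 520 in UIR and 87.9 in UUO. With free RNA subtracted, *Slc5a1* was the gene that still passed in LOH in either model, and *Slc5a1* and *Khk* those in principal cells of UUO.

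*Khk* was the gene above the free-RNA level in all these classes. It was at 28.4 to 53.9 CPM in control LOH, 25.3 to 35.6 in UIR and 24.6 to 26.9 in UUO, which is 1.43 to 8.19 times that level. In intercalated cells it was at 18.4 to 58.8, 29.7 to 33.5 and 27.2 to 27.6 CPM. In principal cells it was at 33.6 to 44.3 CPM in controls, 25.0 to 28.1 CPM with UIR and 13.4 to 18.8 CPM with UUO, with no overlap between the 3 groups, which differed in their clusters of principal cells. That fall held with free RNA subtracted in UUO (-0.98, edgeR adjusted p = 0.00209), where 2 of the genes then passed, but not in UIR (-0.48, adjusted p = 0.176). Cells outside the named tubular classes, unnamed tubular cells among them, also held *Khk* UMIs. Their share was 1.34 to 2.26% in control, 13.7 to 16.6% in UIR and 56.5 to 76.5% in UUO libraries. It moves with cell numbers. The level of *Khk* in those cells is not given, so it is not shown to be particular to tubular classes.

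Over the 11 PT pools, each gene was set beside those of at least 50 CPM by Pearson's r of log2(CPM + 1), as a description over libraries that share groups, depth and free RNA. *Slc2a2* ran closest to *Fbxo22* (r = 0.98), *Pgam1* and *Ptprd*, *G6pc* to *Fam195a* (0.97), *Pex7* and *Cisd1*, and *Miox* to *Aspa* (0.96), *Acaa2* and *Cisd1*. *Pck1* ran closest to *Stk16* (0.94), *Atp5f1* and *Med21*, and *Fbp1* to *Mdh1* (0.93), *Smim22* and *Uqcrfs1*. For *Slc5a1* these were *Bax* (0.97), *Cyp4a10* and *Actr2*, for *Slc5a2* *Glb1l* (0.94), *Ppdpf* and *Zfp871*, for *Slc5a12* *Pdzd2* (0.92), *Tbc1d1* and *Srsf11*, and for *Khk* *mt-Cytb* (0.91), *Neu1* and *Cdk12*. None of these neighbours was another of the 9 genes. *Slc5a1* averaged 16.1 CPM and had no UMI in the PT pool of the unnumbered UUO library (35762 UMIs), so that this library can weigh heavily in its r.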

How the data were processed

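The authors deposited raw UMI counts per gene and barcode, with the barcodes of empty droplets, for each 10x Chromium library. The submitters' processing notes name Cell Ranger 3.1.0 and mm10. The decontamination and doublet removal of the study's methods are not in these counts.

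Cells were called in each library from 500 UMIs against its empty droplets, and barcodes with over 30% mitochondrial or 5% hemoglobin UMIs or under 200 genes, and the 7.5% most like simulated doublets, were left out. Clustering (2000 variable genes, 40 components, Leiden at resolution 1) excluded the naming markers, the 9 genes, the pathway list, and free-RNA and mitochondrial genes, and the tubular and PT cells were clustered again. The limits of naming were set after marker tables of the clusters had been seen. UMIs were summed per class and library, with at least 20 cells (10 for the 2 added PT definitions below). The sums were tested with edgeR 4.0.16 (quasi-likelihood, filterByExpr, TMM, 3 groups in one model, Benjamini-Hochberg over all genes, 0.05). Because CPM are relative, a level is a share of the pool. The free-RNA level is what a pool would hold if its free-RNA share, set from genes of other classes, followed the empty droplets. The 9 genes and the lists were chosen with earlier results of these data known. Named are the 9 genes, pathway genes that passed in PT (1 is not reported here) and the 3 genes most like each. No label pairs libraries by number. Libraries of different groups that share a number or have none showed little shared deviation (13 pairs, r from -0.04 to 0.08). With UUO pools of few UMIs this cannot exclude a pairing. Alternatives were the mitochondrial limit, cell and doublet filters, naming, free RNA, DESeq2 1.42.0, filters, a replicate block and each library left out, and 2 PT definitions added after seeing the data. The fit was also run on counts simulated from the PT pools. Python 3.11.15, numpy 2.4.6, scipy 1.17.1, pandas 2.3.3, leidenalg 0.10.2 and R 4.3.3 were used.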

Additional observations from a re-analysis of the deposited data

Results flagged for a closer look

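Single control libraries stood apart in 9 of the 62 groups of 4 or more libraries examined, by a gap to the nearest library that exceeded Dixon's 95% limit. For normally distributed values chance passes this limit in about 1 of 20 groups. In PT these were *Slc5a1* in AN2 (18.01 CPM) and *G6pc* in AN1 (368.6 CPM). In S3-like PT they were *Slc5a12* in N1 (7.025 CPM) and *Slc2a2* in N2 (21.35 CPM). In LOH they were *Slc5a12* in Ctrl (1.76 CPM) and *Slc2a2* in N2 (8.08 CPM), in the distal tubule *Slc5a1* in AN2 (3.29 CPM), and in principal cells *Slc5a1* (10.22 CPM) and *G6pc* (6.81 CPM) in N2. Over all controls, LOH held 1 UMI of *Slc5a12* and 4 of *Slc2a2*, and the distal tubule 3 of *Slc5a1*. Principal cells held 4 of *Slc5a1* and 7 of *G6pc*. The rate of the limit does not apply to such counts.

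The changes from control in UUO and UIR, which share their controls, differed in other tubular classes when the 2 models were tested against each other with edgeR. In LOH the difference was -2.64 on the log2 scale for *Fbp1* (adjusted p = 0.00666) and -4.28 for *Miox* (adjusted p = 0.000186). In principal cells it was -3.65 for *Pck1*, -0.77 for *Khk*, -5.05 for *Slc5a2*, -3.34 for *Fbp1* and -3.26 for *Miox*. *Slc5a2* was at 0 in all UUO libraries there, so that its value is set by the fit and bounds nothing. In intercalated cells it was -2.04 for *Fbp1* and -2.75 for *Miox*. The part of free RNA in these differences was not tested beyond the subtraction.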

How the results depend on the processing

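The counts of the 9 genes that passed in PT changed with the choice of cells. In UIR (5 passed) 3 did at a mitochondrial limit of 50% and 3 with free RNA subtracted. In UUO (6 passed) 2 did with at least 1000 UMIs per cell (a fit with 1 UUO library, assumed to vary like the other groups), 3 at Leiden resolution 2 (2 UUO libraries), 2 with free RNA subtracted, 3 without the PT sub-clusters led by another class and 2 without the shallow cluster. There 8 passed at a limit of 50%, 7 with each cell named on its own (2 UUO libraries) and 9 with doublets kept, *Fbp1* in all of these (-0.59, -0.80 and -0.79). Between UUO and UIR 1 passed where each cell was named on its own, against 0. In S1/S2-like PT (7 passed) 2 did at a limit of 50%. With free RNA subtracted 1 passed in LOH in either model, 0 (UIR) and 2 (UUO) in principal cells and 0 in intercalated cells in either. Of the pathway list, 3 passed in UIR at a limit of 15%, 2 at 50%, 14 with doublets kept, 2 with free RNA subtracted and 1 without the sub-clusters led by another class (main 5). In UUO (main 1) 8 passed at 50%, 21 with doublets kept, 5 with each cell named on its own, 5 with DESeq2 and 3 without a filter on low counts. Of all genes tested in PT in UIR (main 12.4%), 7.63% passed at 15%, 13.4% at 50%, 26.5% with doublets kept, 5.83% with free RNA subtracted and 8.02% without the sub-clusters led by another class. In UUO (main 3.23%) the shares were 8.83% at 50%, 27.6% with doublets kept, 7.9% with cells named on their own, 6.3% with DESeq2, 4.27% without a filter, 0.59% with 1000 UMIs, 0.888% at Leiden resolution 2, 0.7% with free RNA subtracted, 1.73% without the sub-clusters led by another class and 1.61% without the shallow cluster. Without thinning, 7 (UIR) and 8 (UUO) of the detection shares passed, against 0.

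Some values crossed 0, in log2 against control in UIR unless said, among them 2 called falls, *Slc5a2* in S1/S2-like PT and *Khk* in LOH in UUO: *Fbp1* in PT was 0.0013 at a limit of 15%, 0.0137 with 1000 UMIs, 0.088 with free RNA subtracted, 0.0362 without the sub-clusters led by another class and 0.0277 without the shallow cluster. *Khk* in PT was 0.0101 with free RNA subtracted, and *Slc5a2* in PT was 0.1545 at 50%. At 50%, *Khk* and *Slc5a2* in S1/S2-like PT were -0.0567 and 0.0365 and *Miox* in S3-like PT was 0.0433, which was 0.0038 with DESeq2. *Khk* in LOH in UUO was 0.0206 with free RNA subtracted. The cause was not tested.

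With 1 library left out in turn, 4 to 6 genes passed in PT in UIR, 4 to 6 in UUO and 0 between the models, and 5 to 8 in S1/S2-like PT. In LOH 4 to 6 and 5 to 6 passed, in principal cells 1 to 5 and 5 to 6, in intercalated cells 1 to 3 and 3 to 4, and of the pathway list 2 to 5 and 1 to 3 (UIR, then UUO). *Fbp1* in PT ran from -0.1767 to 0.0926 in UIR, *Slc5a1* in PT from -1.842 to 0.76 in UUO, and in S3-like PT *Fbp1* from -0.14 to 0.0241 and *Miox* from -0.34 to 0.20. A replicate block left the counts in PT at 5 (UIR), 6 (UUO) and 0 and the pathway list at 5 and 1, and changed no call. Libraries of different groups that share a number or have none showed little shared deviation, which cannot exclude a pairing. Depth limits UUO most, where PT of the unnumbered library held 35762 UMIs.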
